A study of Danio rerio with 12 samples.

Results

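Neuronal ion channel and synaptic adhesion genes were followed in whole zebrafish embryos of 3 mutant genotypes and in wild-type controls. The set held every gene whose symbol, read without regard to case, starts with cacna, cacnb, scn and a digit, kcn, gria, grin and 1, 2 or 3, grik, gabr, glra, nrxn, nlgn or lrrtm. These were 150 gene identifiers of 14820 in the deposited tables. Voltage-gated calcium channels gave 33 of them, sodium channels 10, glutamate receptors 23, GABA-A and glycine receptors 21, and the neurexins and neuroligins 12. Potassium channels gave 50 in the splicing tables and 1 identifier, a second one with the symbol kcnj13, in the expression tables alone, while no lrrtm gene was listed.

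The snapc3-/- embryos were of mixed background A, the lsm8-/- embryos of mixed background B and the tnpo3-/- embryos of mixed background C, each with 3 libraries. The wt controls had 3 libraries, 1 of each background, so genotype and background cannot be told apart. The labels put the mutations among hits of a forward screen for T lymphocyte development and give no stage, clutch or number of pooled embryos. All RNA was total RNA depleted of ribosomal RNA and sequenced from stranded libraries.

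Voltage-gated calcium, sodium and potassium channels set the excitability of neurons and muscle, and calcium entry through the presynaptic ones triggers transmitter release. Glutamate receptors carry fast excitation, GABA-A and glycine receptors carry fast inhibition, and presynaptic neurexins bind postsynaptic neuroligins across the cleft. Transcripts of these families are known in vertebrate brain for long introns, very short exons and neuron-specific alternative splicing. SNAPC3 is part of an activator of small nuclear RNA genes, LSM8 to the ring that binds U6 small nuclear RNA, and TNPO3 is a nuclear import receptor for SR proteins.

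Each skipped-exon table gave, per library, the junction reads that include an exon and those that skip it. The 3 control libraries were the same in all 3 tables, but each table listed its own events. Junction reads per library came to 13039814 to 15025631 in snapc3 mutants against 12772103 to 14288586 in controls in the snapc3 table. The lsm8 table held 14668691 to 18478988 in lsm8 mutants and 20118005 to 22999590 in controls, and that for tnpo3 15711487 to 18300285 in tnpo3 mutants and 16340782 to 18650509 in controls. A junction shared by several events counts again in each, so these totals and the CPM below are not numbers of distinct reads. Member genes took 0.292% to 0.433% of these totals. In the authors' deposited tables snapc3 was lower in snapc3 mutants (log2 fold change -1.39, SE 0.19, adjusted p = 0.0298) and tnpo3 was lower in tnpo3 mutants (-1.51, SE 0.06, adjusted p = 0.0104). By the authors' deposited table the targeted gene lsm8 was higher in lsm8 mutants (2.87, SE 0.10, adjusted p = 0.000602) and also in snapc3 mutants (2.19, adjusted p = 0.00213), so its level does not check the label. Neurons were present by their markers: 11 to 13 of 20 listed neuronal genes were measured in each table. Of these 0 were called changed in any mutant, which does not show that their levels were the same.

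The member genes held 575 events of 42171, on 508 distinct exons, and 224 of the events stood in all 3 tables. Member exons had a median length of 110 bp, against 114 bp over all genes, and 254 of 508 (50%) had a length that is a multiple of 3, against 45.4% over all genes. Exons of 30 bp or less made up 8.07% (41 of 508) against 2.42%, and the median intron was 4559 bp upstream and 3741 bp downstream, against 2070 bp and 2035 bp over all genes. Of the 550 member events with at least 10 control reads, 50 (9.09%) had a mean control inclusion of 20% to 80%, against 4.24% over all genes. Inclusion here weighs the junction reads that include an exon against those that skip it in the same event, each divided by form length. It compares only these forms and is not a share of all transcripts of the gene. These figures describe what the annotation and the controls hold and were not tested.

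The role groups were unlike one another in this structure. Exons of neurexins and neuroligins had median flanking introns of 11182 bp and 15852 bp, 23.2% of them (13 of 56) were 30 bp or less, and 80.4% kept the reading frame. Their alternative events with a control inclusion of 20% to 80% numbered 11 of 63 (17.5%), and all 11 were a multiple of 3 long. Calcium channels followed with 22 of 171 such events (12.9%) and 20 of 160 exons of 30 bp or less (12.5%). Potassium channels had 11 of 115 and glutamate receptors 4 of 116. GABA-A and glycine receptors had 2 of 64, and 32.1% of their exons kept the frame. Sodium channels had 0 of 21.

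**Figure D1:**
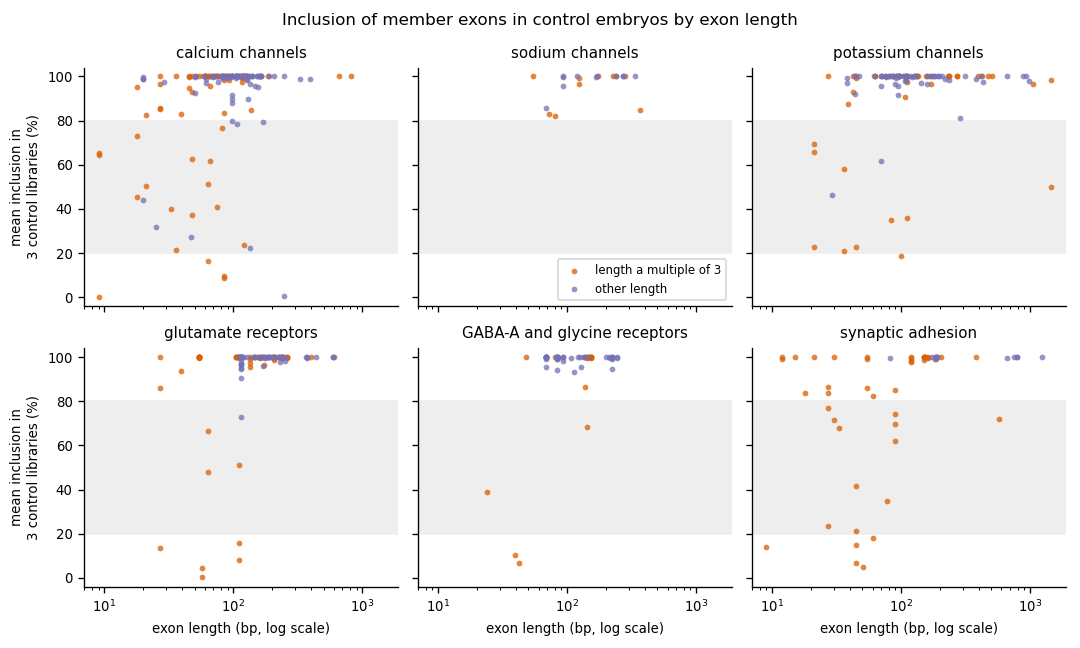
Mean inclusion in the 3 control libraries (percent) against exon length (bp, log scale) for member exons with at least 10 control reads, 1 panel per role group. Points in the grey band, inclusion of 20% to 80%, are 50 of 550 events; orange points have a length that is a multiple of 3, purple points any other length.

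The alternative exons with the most reads were those of the NMDA receptor subunits grin1a and grin1b, the AMPA receptor subunit gria3a, the neurexins and the GABA-A receptor subunit gabrb2, and none of them was called in any mutant. The 63 bp exon of grin1b, which encodes the obligatory NMDA subunit, was included at 53.1 ± 2.6% in snapc3 mutants, 50.9 ± 1.4% in lsm8 mutants, 46.8 ± 4.1% in tnpo3 mutants and 48.1 ± 3.6% in controls (SD, n = 3 each). Its paralogue in grin1a, also 63 bp, read 59.5%, 58.0% and 60.2% in tnpo3 mutants against 68.6%, 67.2% and 64.4% in controls, a difference of -7.53 points. Those 2 groups did not overlap, yet limma gave an adjusted p of 0.693. Means of the grin1a exon were 69.4% in snapc3 mutants and 66.9% in lsm8 mutants against 66.7% in controls, and both groups overlapped the controls.

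Neurexin exons set which partners the protein binds. The 90 bp exon of nrxn1a read 64.7%, 68.9% and 61.2% in tnpo3 mutants against 70.2%, 77.1% and 75.7% in controls. The groups did not overlap, the difference was -9.41 points, and the limma adjusted p was 0.635, while the authors' deposited table gave an FDR of 0.0294. In lsm8 mutants the same exon averaged 65.4 ± 7.1%, in snapc3 mutants 69.7 ± 4.1% and in controls 74.3 ± 3.6%. The 90 bp exon of nrxn3b averaged 73.0% in snapc3, 77.8% in lsm8 and 67.5% in tnpo3 mutants against 69.9% in controls. The shorter neurexin exons lay close to their controls. The 27 bp exon of nrxn3a had means of 21.1% to 22.9% in the 3 mutants against 23.6% in controls, and the 45 bp exon of nrxn3b 19.9% to 21.0% against 21.3%. The 115 bp exon of gria3a had means of 68.8%, 73.1% and 83.3% in snapc3, lsm8 and tnpo3 mutants against 72.7% in controls, and the 141 bp exon of gabrb2 had 65.2%, 66.2% and 67.8% against 68.2%. All of these overlapped the controls.

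Called exons were mostly ones that the controls nearly always include, as most member exons are. An exon was called at a limma adjusted p below 0.05 over the whole table and a difference of at least 10 percentage points. Testing needed at least 1 read of each form. An exon without skipping reads in any control therefore entered through mutant reads alone and could only fall. Such were the called exons of cacnb4a, kcnk2b, CACNA2D1, GABRB2, nrxn2a and nlgn4a. For them the direction was fixed by the filter, and leaving out a control library is a weak check. In tnpo3 mutants 8 of 378 tested member exons were called lower, where the background over all 27050 tested exons was 2.07%, and none was called higher. In lsm8 mutants 5 of 388 were called lower, against a background of 1.06% of 22499 exons, and none higher. In snapc3 mutants 0 of 277 were called, against a background of 0.690% of 22314 exons in either direction. At an unadjusted p below 0.05 there were 13 member exons in snapc3 mutants, of 277, beside 2871 of 22314 exons over all genes, so the members' share was the smaller one. Of the 13, 12 were lower, beside 2560 lower and 311 higher over all genes. The authors' deposited FDR called 1 of the 277, the 21 bp exon of cacna2d4a, at a limma adjusted p of 0.428. Control inclusion was at least 95% for 5 of 5 called exons in lsm8 mutants and for 5 of 8 in tnpo3 mutants. Among tested member exons it was so for 285 of 388 and 275 of 378. Over all genes 193 of the called exons in lsm8 mutants (239 lower and 21 higher) met it. In tnpo3 mutants 467 of the called exons (560 lower and 31 higher) did. The called exons kept the reading frame in 3 of 5 cases in lsm8 mutants and in 2 of 8 in tnpo3 mutants. Called exons of all genes were not counted by frame.

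Across all tested member exons the median difference was -0.49 points in snapc3 mutants, where it was -0.37 over all exons. It was -0.89 points against -0.39 in lsm8 mutants and -0.78 points against -0.59 in tnpo3 mutants. The shares of member exons below 0 were 61.4%, 70.1% and 69.6%, beside 67.6%, 67.9% and 75.9% of all exons. These shares and medians are descriptions, and members were not tested against the other genes.

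**Figure D2:**
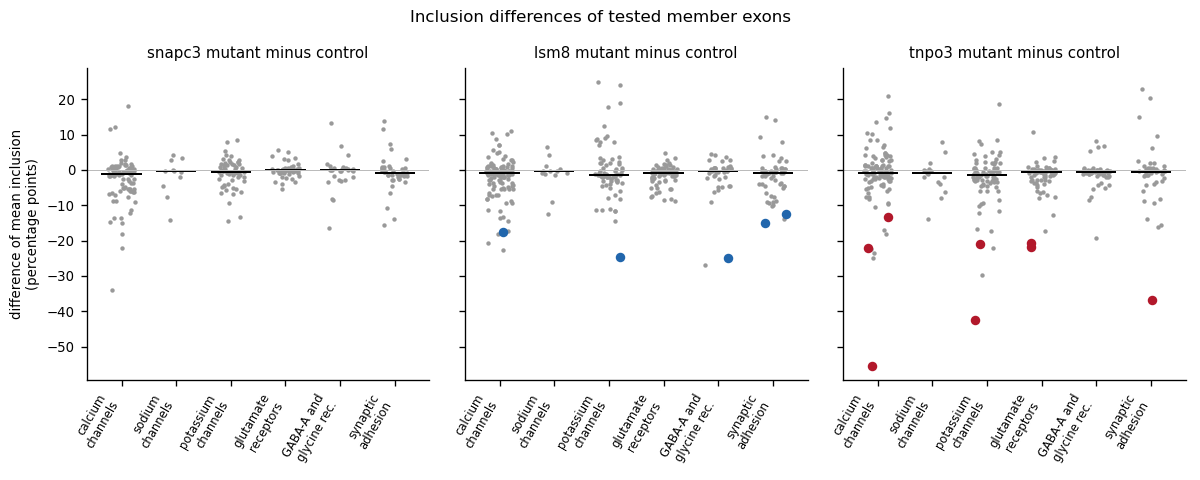
Difference of mean inclusion (percentage points, mutant minus control) of each tested member exon by role group, 1 panel per mutant. Large coloured points are the called exons, 0 in snapc3, 5 in lsm8 and 8 in tnpo3 mutants, all below 0; black bars are group medians.

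Among calcium channel exons the furthest fall was in CACNA1F, which encodes the L-type pore subunit of photoreceptor synapses in mammals. Its 130 bp exon (Zv9 chromosome 8, 46692602 to 46692731, plus strand) was included at 57.1%, 16.3% and 30.1% in tnpo3 mutants, against 100%, 85.8% and 84.0% in controls. The fall was 55.4 points to a mean of 34.5 ± 20.7%, against 89.9 ± 8.8% in controls (SD, n = 3 each; limma adjusted p = 0.0200). The exon averaged 90.0% in snapc3 and 94.9% in lsm8 mutants, and both overlapped the controls. The tnpo3 value rested on few reads: 17, 5 and 11 including reads and 6, 12 and 12 skipping reads in the mutants, against 75, 77 and 67 including and 0, 6 and 6 skipping in controls. Leaving out the second or the third tnpo3 mutant library, by their place in the tables, took the adjusted p to 0.0529 to 0.0547, with differences of -46.3 and -53.2 points. The call was also lost with a minimum of 20 junction reads.

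Other calcium channel exons that fell belong to auxiliary subunits, which bring the pore to the membrane and tune its gating. The 110 bp exon of cacnb4a (chromosome 9, 39173215 to 39173324, plus strand) was included at 88.1%, 83.6% and 87.9% in tnpo3 mutants against 100% in each control library, a fall of 13.4 points (adjusted p = 0.00968). All tnpo3 libraries were below all controls; in lsm8 mutants the exon read 100%, 86.7% and 100%. In lsm8 mutants the 117 bp exon of CACNA2D1 (chromosome 18, 9205511 to 9205627, plus strand) was included at 89.1%, 75.1% and 82.8%, against 100% in each control library, and fell by 17.7 points (adjusted p = 0.00623). The snapc3 mutants had 100%, 94.8% and 86.8% and the tnpo3 mutants 89.9%, 100% and 90.1%, neither called. Both calls held without any 1 library, which for controls without skipping reads is a weak check. Both were lost when reads were not divided by form length.

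The 25 bp exon of cacnb2b (chromosome 2, 31224454 to 31224478, plus strand) is an alternative microexon. It read 7.58%, 19.0% and 3.50% in tnpo3 mutants against 29.4%, 32.4% and 34.1% in controls and fell by 22 points (limma adjusted p = 0.0241). No tnpo3 library reached a control, while snapc3 mutants (29.4%, 17.2% and 15.6%) and lsm8 mutants (28%, 53.2% and 35.7%) were not called. Without the first or the third tnpo3 mutant library the adjusted p was 0.0942 to 0.137, and the call was lost too with no read minimum and with the variance trend taken over reads.

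Several calcium channel exons differed by as much without passing the test. In snapc3 mutants the 60 bp exon of cacna1da, an L-type pore subunit, read 90.8%, 43.0% and 100% against 100% in each control library (adjusted p = 0.0783), a difference of -22.1 points that came mostly from the second library. Without the second or the third control library the adjusted p was 0.0383 or 0.0380. Its 27 bp exon read 71.7%, 75% and 66.2% in snapc3 and 70.2%, 50% and 74.3% in lsm8 mutants, against 84.0%, 85.7% and 87.1% in controls. Both mutants lay wholly below the controls, with adjusted p-values of 0.459 and 0.186, and tnpo3 mutants averaged 83.0%. Its 75 bp exon read 15.9%, 16% and 19.5% in tnpo3 mutants against 46.2%, 52.8% and 23.0% in controls (adjusted p = 0.0922; 0.0156 without the third control library).

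Further differences under the rule for size were scattered. In lsm8 mutants the 20 bp exon of cacnb2a read 32.9%, 25.9% and 5.45% against 38.6%, 44.2% and 49.5% in controls (adjusted p = 0.130), and the 36 bp exon of cacna1ab 5.96%, 0% and 3.69% against 0%, 36.5% and 28% in controls (0.103). This cacna1ab exon passed without the first or the third control library (1.7e-05 and 0.0262). In snapc3 mutants the 63 bp exon of cacna1bb, the N-type pore subunit, averaged 36.3% against 51.2% in controls (0.577). The 81 bp exon of cacnb2a averaged 54.2 ± 25.3% in tnpo3 mutants and 76.6 ± 26.4% in controls (0.541), where the control libraries themselves read 100%, 48.0% and 81.9%. Outside the rule for size, the 21 bp exon of cacna2d4a averaged 16.3% in snapc3 mutants and 50.2% in controls. It rested on few reads: all 2 events of the gene held 9, 12 and 11 in snapc3 mutants against 30, 49 and 42 in controls. This exon was the one call by the FDR of the authors' deposited table (0.00621), where the limma adjusted p was 0.428.

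Sodium channel exons gave no call in any mutant among 11, 13 and 17 tested in the snapc3, lsm8 and tnpo3 tables. Of all exons 0.690% were called in either direction in snapc3 mutants, and 1.06% and 2.07% were called lower in lsm8 and tnpo3 mutants. The absence of a call among so few exons therefore says little about them. The most different was the 81 bp exon of scn3b, an auxiliary subunit, at 73.2%, 79.7% and 51.6% in snapc3 mutants against 70.1%, 88.5% and 87.9% in controls (limma adjusted p = 0.560). It averaged 73.2% in lsm8 mutants and 74.3% in tnpo3 mutants against 82.2% in controls, and every group overlapped the controls.

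Among potassium channels the 1059 bp exon of kcnn3, a small-conductance calcium-activated channel that shapes the pause after a spike, fell in both lsm8 and tnpo3 mutants. This exon (chromosome 16, 25839289 to 25840347, plus strand; a multiple of 3 long) was included at 93.7%, 100% and 100% in snapc3 mutants, 67.7%, 78.4% and 69.1% in lsm8 mutants and 59.0%, 50.4% and 52.2% in tnpo3 mutants, against 90.9%, 98.1% and 100% in controls. Every lsm8 and tnpo3 library was below every control, and snapc3 libraries overlapped the controls. Skipping reads numbered 4, 0 and 0 in snapc3, 26, 12 and 23 in lsm8 and 43, 32 and 27 in tnpo3 mutants, against 5, 1 and 0 in controls.

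The kcnn3 exon fell by 42.5 points in tnpo3 mutants, to 53.9 ± 4.6% against 96.4 ± 4.8% in controls (SD, n = 3 each; limma adjusted p = 0.000991). This call held without any 1 library and in the fit of all 12 libraries. In lsm8 mutants it fell by 24.6 points, to 71.7 ± 5.8% (adjusted p = 0.0137). That call was lost without the first, the second or the third lsm8 mutant library (adjusted p = 0.0514 to 0.110) and in the fit of all 12 libraries.

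The other potassium channel call was the 118 bp exon of kcnk2b (chromosome 20, 612797 to 612914, plus strand), which encodes a TREK-type leak channel. It read 90.5%, 79.6% and 67.0% in tnpo3 mutants against 100% in each control library, a fall of 21.0 points to 79.0 ± 11.7% (adjusted p = 0.00534), and lsm8 mutants had 100%, 89.2% and 100%. The call held without any 1 library, which for controls without skipping reads is a weak check. The event was not in the snapc3 table. In lsm8 mutants the 111 bp exon of kcnq5a, of the M-current family, read 59.3%, 56.4% and 63.9% against 21.9%, 47.1% and 38.7% in controls. This was a difference of 24 points upward without overlap, but not called (adjusted p = 0.163).

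The only glutamate receptor calls were a pair of 115 bp exons of gria1b, an AMPA receptor subunit, in tnpo3 mutants. They were 2 of 76 tested there, where 2.07% of all exons were called lower. Mammalian AMPA receptor genes are known for a pair of mutually exclusive exons, flip and flop, of one length; the files do not annotate these 2. The first (chromosome 21, 25554747 to 25554861, minus strand) read 87.8%, 62.3% and 75% in tnpo3 mutants against 100%, 95.9% and 94.7% in controls, a fall of 21.8 points (limma adjusted p = 0.0336). The second (25555383 to 25555497) read 86.5%, 66.2% and 75% against 100%, 95.2% and 94.2%, a fall of 20.6 points (adjusted p = 0.0381). Both exons share their skipping reads, 5, 13 and 10 in tnpo3 mutants against 0, 2 and 2 in controls, so they are not independent. Each percentage weighs an exon against those skipping reads alone, so both can be high at once.

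Neither gria1b call was firm. The first was lost without the second or the third tnpo3 mutant library or the first control library (adjusted p = 0.0958 to 0.172), and the second without any tnpo3 mutant library or the first control library (0.0609 to 0.180). Means in snapc3 and lsm8 mutants were 94.7% and 91.6% for the first exon and 95.5% and 91.2% for the second, against 96.9% and 96.5% in controls.

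Of the GABA-A and glycine receptor exons 1 was called, the 68 bp exon of GABRB2 in lsm8 mutants. It was 1 of 40 tested there, where 1.06% of all exons were called lower. It lies on the unplaced scaffold Zv9_NA555 (135196 to 135263, minus strand) beside an intron of 65402 bp. It was included at 80%, 70.0% and 75.5% in lsm8 mutants against 100% in each control library, a fall of 24.8 points (limma adjusted p = 0.00103). All lsm8 libraries had skipping reads, 9, 9 and 17, and no control library had one, over 64 to 124 including reads. The snapc3 mutants read 94.8%, 100% and 100% and were not called, and the event was not in the tnpo3 table. The call held without any 1 library, which for controls without skipping reads is a weak check. In snapc3 mutants the 24 bp exon of GABRG1 differed by -16.5 points (15.4%, 13.3% and 38.7% against 24.3%, 54.1% and 38.7% in controls), with an adjusted p of 0.467.

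Synaptic adhesion genes had 2 called exons of 55 tested in lsm8 mutants, where 1.06% of all exons were called lower. In tnpo3 mutants they had 1 of 43, where 2.07% of all exons were called lower. The 755 bp exon of nlgn4a, a postsynaptic neuroligin (chromosome 1, 32080354 to 32081108, plus strand), was included at 90.3%, 84.7% and 79.6% in lsm8 mutants against 100% in each control library. It fell by 15.1 points, with the smallest limma adjusted p of the member exons in any mutant, 8.26e-05. Skipping reads numbered 16, 24 and 46 in lsm8 mutants, 0, 7 and 2 in snapc3 mutants and 3, 3 and 5 in tnpo3 mutants, and 0 in each control library, where 395 to 578 reads included the exon. The tnpo3 mutants read 98.6%, 98.8% and 97.8%, wholly below the controls at an adjusted p of 0.0126, but by 1.62 points, under the minimum for a call. Any library with a skipping read falls below such controls.

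The 21 bp exon of nrxn2a (chromosome 21, 27587320 to 27587340, minus strand), a neurexin microexon between introns of 103202 bp and 41697 bp, was listed in the lsm8 table alone. It read 86.5%, 91.1% and 84.8% in lsm8 mutants against 100% in each control library, a fall of 12.5 points (adjusted p = 0.00309). Skipping reads were 8, 5 and 10 in lsm8 mutants and 0 in controls. Both lsm8 calls held without any 1 library, which for controls without skipping reads is a weak check. The nlgn4a call was lost when reads were not divided by form length.

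In tnpo3 mutants the 60 bp exon of nlgn3a (chromosome 14, 18217981 to 18218040, plus strand) read 45.7%, 60.5% and 30.7% against 84.9%, 68.8% and 93.6% in controls and fell by 36.8 points (adjusted p = 0.0209). The groups did not overlap, with 60.5% as the highest tnpo3 library and 68.8% as the lowest control. The snapc3 mutants read 88.9%, 100% and 100% and the lsm8 mutants 100%, 100% and 75.5%. The call was lost without the first or the third tnpo3 mutant library or the third control library (0.0740 to 0.157), with no read minimum, with a pseudocount of 2 and with the variance trend taken over reads. A second 60 bp exon of nlgn3a (18267339 to 18267398) differed the other way, at 34.6%, 41.7% and 39.2% in tnpo3 mutants against 22.8%, 17.4% and 14.0% in controls. Its difference of 20.4 points had a limma adjusted p of 0.0970 and an FDR of 9.79e-07 in the authors' deposited table.

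Remaining adhesion exons named by size were not called. The 579 bp exon of nrxn3a read 60%, 70.4% and 38.5% in snapc3 mutants against 68.8%, 76.5% and 70.4% in controls (adjusted p = 0.590). The 90 bp exon of nrxn2a read 79.2%, 92.9% and 82.9% in tnpo3 mutants against 55.6%, 46.7% and 84.0% in controls (0.208; 0.0427 without the third control library).

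**Figure D3:**
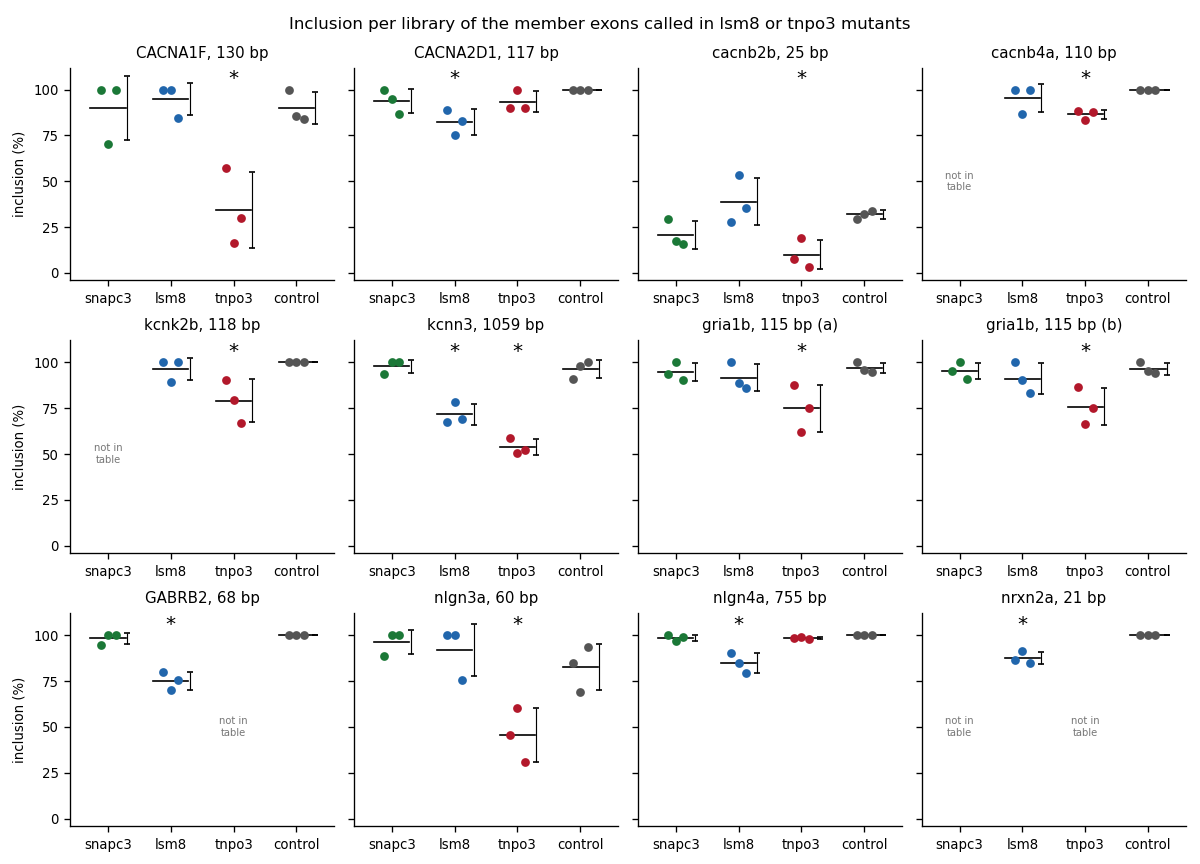
Inclusion (percent) in every library of the 12 member exons called in lsm8 or tnpo3 mutants, 1 panel per exon, with snapc3, lsm8 and tnpo3 mutants left of the controls; bars are group means with SD (n = 3) and asterisks mark called groups. The kcnn3 exon is low in both lsm8 (71.7%) and tnpo3 (53.9%) mutants; panels a and b of gria1b are its exons at 25554747 and 25555383.

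The fit of all 12 libraries, over 12937 exons shared by the tables with 212 of members, shared 1 estimate of the spread. Of the 8 calls in tnpo3 mutants 6 were among its events and kcnn3 alone passed. Of the 5 in lsm8 mutants 3 were among its events, and CACNA2D1 and nlgn4a passed. The same fit tested the mutants against one another. Between lsm8 and tnpo3 mutants 8 of 212 member exons were called, where 2.58% of all exons were. Between snapc3 and lsm8 mutants 4 were called, against a background of 1.11%, and between snapc3 and tnpo3 mutants 2, against 2.60%.

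The kcnn3 exon was 44.0 points higher in snapc3 than in tnpo3 mutants (adjusted p = 0.00830, held without any 1 of 12 libraries) and 26.1 points higher in snapc3 than in lsm8 mutants (0.0402). Between lsm8 and tnpo3 mutants it was not called. The first nlgn3a exon was 50.7 points higher in snapc3 than in tnpo3 mutants (0.0138; 0.0535 without the third tnpo3 mutant library), and the CACNA1F exon 60.4 points higher in lsm8 than in tnpo3 mutants (0.0314). The nlgn4a exon was 13.8 points higher in snapc3 than in lsm8 mutants (0.0296). The snapc3 against lsm8 difference of kcnn3 was lost without any lsm8 mutant library, the second or the third snapc3, the first or the third tnpo3 or the second control library (0.0507 to 0.126). That of CACNA1F was lost without the first or the second lsm8 or the second or the third tnpo3 mutant library (0.0845 to 0.104), and that of nlgn4a without any lsm8 or the first or the third snapc3 mutant library (0.0613 to 0.102).

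The retained-intron tables held 1 intron of a member gene, a stretch of 21 bp in nrxn1a (chromosome 12, 26141974 to 26141994, plus strand). It was retained at 99.1%, 97.1% and 99.0% on average in snapc3, lsm8 and tnpo3 mutants and at 97.7% in controls, and was not called (limma adjusted p = 0.815, 0.898 and 0.750). Reads of the spliced form numbered 0, 1 and 0 in snapc3, 2, 0 and 1 in lsm8 and 0, 0 and 1 in tnpo3 mutants. Each control library had 1. Whether so short a stretch is spliced as an intron was not tested. Introns over all genes were called at 0% in snapc3, 1.62% in lsm8 and 0% in tnpo3 mutants, of 675 to 677 tested.

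Junction reads were then summed over the events of each gene and given as CPM, a share of the table's junction reads scaled to a common total, a measure of level that also rests on how many events a gene has. In bulk tissue fewer cells of a type and less RNA per cell cannot be told apart. All genes had a median log2 change of -0.11 in snapc3, 0.11 in lsm8 and 0.02 in tnpo3 mutants, and scaling by the median of ratios took these medians to within 0.01 of 0. Levels of the members moved little around that: their medians were -0.15, 0.18 and -0.05, and after ratio scaling -0.04, 0.08 and -0.07. In snapc3 mutants 6 of 111 tested member genes fell, against a background of 4.68% of 10295 genes. There 0 rose, beside 138 of the 10295. In lsm8 mutants 9 of 128 rose, against 6.98% of 10069 genes, and 1 fell, against 5.31%. Ratio scaling split the lsm8 calls into 5 higher and 4 lower, and the snapc3 calls into 1 higher and 5 lower. In tnpo3 mutants 1 of 127 fell, against 1.62% of 11493 genes, and 0 rose, beside 102 of the 11493.

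**Figure D4:**
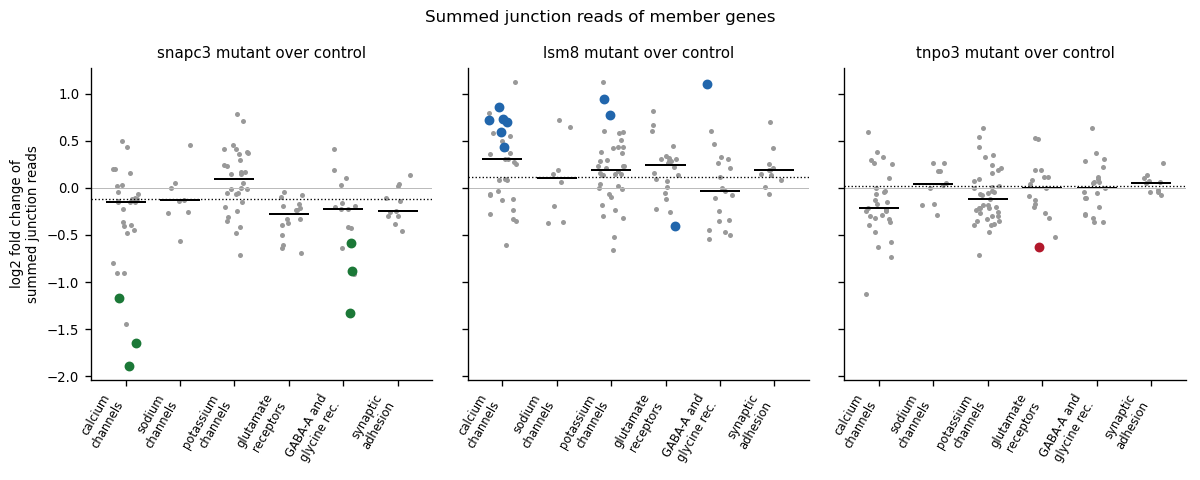
Log2 fold change of summed junction reads (mutant over control) of each tested member gene by role group, 1 panel per mutant; large coloured points are called genes, black bars role medians and dotted lines the median of all genes (-0.11, 0.11 and 0.02). Called genes lie below 0 in snapc3 and tnpo3 mutants and, but for grin1b, above 0 in lsm8 mutants. Over all genes 482 were called lower and 138 higher in snapc3 mutants, and 186 lower and 102 higher in tnpo3 mutants.

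Calcium channel genes gave most calls. In lsm8 mutants 6 of 32 rose, against 6.98% of all genes. The role median was 0.31 on the log2 scale, against 0.11 over all genes, and 0.21 after ratio scaling. Summed reads of the 32 genes were 1019.7, 772 and 816 CPM in lsm8 mutants and 609, 651 and 719 CPM in controls, without overlap. The steadiest was cacna1sb, the voltage sensor of skeletal muscle, at 50.4, 42.0 and 41.5 CPM in lsm8 mutants against 24.6, 28.1 and 27.8 CPM in controls (log2 fold change 0.73, SE 0.13, limma adjusted p = 0.00549), and it held without any 1 library. Skeletal muscle markers moved with it: 8 of 12 rose in lsm8 mutants, beside 6.98% of all genes. The list summed to 183435 to 186426 CPM in lsm8 mutants against 143444 to 155916 CPM in controls. The part of muscle in this result was not tested. In tnpo3 mutants 0 of 11 muscle markers were called and cacna1sb read 52.2, 56.2 and 62.8 CPM against 64.9, 65.9 and 68.7 CPM in controls (-0.23, adjusted p = 0.333).

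The other calcium channel genes that rose in lsm8 mutants encode pore subunits of the L-type (cacna1c), T-type (cacna1g) and P/Q-type (cacna1aa) and auxiliary subunits (cacna2d1a, CACNA2D2). The cacna1c gene had 30.3, 23.5 and 26.4 CPM in lsm8 mutants against 17.3, 16.9 and 18.6 CPM in controls (0.60, SE 0.14, limma adjusted p = 0.0222). The cacna2d1a gene, with the most reads of its group, had 203, 211 and 178 CPM against 135, 147 and 156 CPM in controls (0.43, SE 0.10, adjusted p = 0.0232). It also read 137, 141 and 117 CPM in snapc3 mutants against 84.7, 98.7 and 109.6 CPM in controls, which ratio scaling called higher (0.55, adjusted p = 0.0268) and the scaling used here did not (0.44, adjusted p = 0.0735). The cacna1g gene rose by 0.70 (SE 0.19, adjusted p = 0.0426), CACNA2D2 by 0.86 (SE 0.24, 0.0485) and cacna1aa by 0.72 (SE 0.20, 0.0495). Each had its lsm8 libraries above its controls, which a call with 3 libraries a group makes likely. The CACNA2D2 values are those of ENSDARG00000079540, and no other identifier with that symbol was called in lsm8 mutants.

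These 5 calls were lost without single libraries. For cacna1c, cacna1g and CACNA2D2 these were the first or the third lsm8 mutant or the first or the second control library (adjusted p = 0.0573 to 0.0813, 0.0988 to 0.138 and 0.120 to 0.136). For cacna2d1a they were the first or the second of either group (0.0594 to 0.0859), and for cacna1aa the first or the third lsm8 mutant or any control library (0.0580 to 0.143). Ratio scaling ended the calls of cacna2d1a, CACNA2D2 and cacna1aa (adjusted p = 0.0672, 0.0541 and 0.0585). Those of cacna1g and cacna1aa were also lost with the single event of most reads, and that of cacna1aa with no minimum of summed reads.

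In snapc3 mutants 3 of 30 calcium channel genes fell, against 4.68% of all genes. The auxiliary subunit genes cacna2d4b and cacna2d4a are known from the retina in mammals, as is CACNA1F. The cacna2d4b gene had 13, 13.9 and 10 CPM in snapc3 mutants against 30, 27.9 and 24.8 CPM in controls (-1.17, SE 0.17, limma adjusted p = 0.00463) and held without any 1 library. CACNA1F had 1.33, 1.84 and 2.38 CPM against 5.87, 5.81 and 5.46 CPM in controls (-1.65, SE 0.29, adjusted p = 0.0125; 0.0520 without the second control library), from 1 event. The cacna2d4a gene had 0.599, 0.920 and 0.819 CPM against 2.35, 3.43 and 3.14 CPM in controls (-1.89, SE 0.39, adjusted p = 0.0250). It was lost without the first or the third snapc3 mutant or the second or the third control library (0.0631 to 0.107), and with the single event of most reads.

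Some genes of a photoreceptor list also fell, in each of the 3 mutants. Of a list of 43 symbols chosen after the data were seen, 4 of 10 tested fell in snapc3 mutants, against 4.68% of all genes. They summed to 746 to 1106 CPM in snapc3 mutants against 1228 to 1438 CPM in controls. In lsm8 mutants 7 of 11 fell, against 5.31% of all genes (1542 to 1709 against 2421 to 3220 CPM). In tnpo3 mutants 5 of 13 fell, against 1.62% (826 to 1100 against 1345 to 1679 CPM). As the list was chosen after results were known, its counts beside those shares are no test and no support. Log2 changes above 0 were found for 1 of 10, 1 of 11 and 0 of 13 in snapc3, lsm8 and tnpo3 mutants. In snapc3 mutants this was rpe65a (0.51, limma adjusted p = 0.135). No measured marker of the list was at 0 in all libraries, which the minimum of 10 summed reads fixed beforehand. Their part in the results for CACNA1F and the cacna2d4 genes was not tested. In tnpo3 mutants CACNA1F read 11.2, 7.65 and 15.5 CPM against 33.0, 20.2 and 21.1 CPM in controls (-1.13, adjusted p = 0.0858) and cacna2d4b differed by -0.74 (adjusted p = 0.170). In lsm8 mutants they differed by -0.13 and -0.35 (adjusted p = 0.691 and 0.237).

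No sodium channel gene was called in any mutant, of 8, 8 and 10 tested. Of all genes 4.68%, 5.31% and 1.62% were called lower in snapc3, lsm8 and tnpo3 mutants, and 6.98% higher in lsm8 mutants. The absence of a call among so few genes therefore says little about them. The most read, scn8aa, a pore subunit of axons, had 40.6, 46.5 and 39.0 CPM in snapc3 mutants against 39.7, 39.8 and 47.0 CPM in controls of that table, and it overlapped the controls in the other mutants too. Under ratio scaling alone scn4ab, of skeletal muscle, was called lower in lsm8 mutants (-0.46, limma adjusted p = 0.0446).

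Potassium channel genes gave 2 calls, both in lsm8 mutants and both thin. These were 2 of 36 tested, where 6.98% of all genes were called higher. The BK auxiliary subunit gene kcnmb2 had 5.79, 4.19 and 4.17 CPM in lsm8 mutants against 2.88, 2.04 and 2.42 CPM in controls (0.94, SE 0.26, limma adjusted p = 0.0415), and kcnn3 had 15.8, 10.7 and 11.7 CPM against 6.76, 6.30 and 9.30 CPM in controls (0.77, SE 0.21, adjusted p = 0.0422). In snapc3 mutants kcnmb2 was at 5.72, 7.36 and 6.92 CPM against 4.54, 3.29 and 3.82 CPM in controls, without overlap and not called (0.78, adjusted p = 0.0855). The kcnmb2 call in lsm8 mutants was lost without any 1 of the 6 libraries (0.0543 to 0.145) and under ratio scaling (0.0604). That of kcnn3 was lost without any lsm8 mutant or the first or the second control library (0.0556 to 0.146) and when its single event of most reads was used. The kcnn3 gene read 9.62, 5.30 and 5.47 CPM in tnpo3 mutants against 6.43, 5.74 and 7.65 CPM in controls. That sum holds the reads of the 1059 bp exon's event alone, so it is no separate measure of the gene's level. The most read potassium channel gene, kcnma1a, the BK pore, had 145, 139 and 141 CPM in snapc3 mutants against 171, 161 and 216 CPM in controls, without overlap and not called (-0.35, adjusted p = 0.115).

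Glutamate receptor genes had a log2 change below 0 in snapc3 mutants in 16 of 16 cases, at a median of -0.28 against -0.11 over all genes, but 0 were called by limma. An unadjusted p below 0.05 was found for 7 of the 16, beside 2391 of 10295 genes in all, and 35.1% of all genes had a log2 change above 0. Under ratio scaling the median was -0.17 and 3 of 16 were above 0. Their summed reads were 941, 999 and 945 CPM in snapc3 mutants and 1048, 1211 and 1271 CPM in controls. As shares of a total these stand beside skeletal muscle markers. Of that list 4 of 9 rose in snapc3 mutants, beside 138 of 10295 genes in all. The list summed to 40495 to 42141 CPM in snapc3 mutants against 28270 to 30107 CPM in controls. The part of muscle in the levels of snapc3 mutants was not tested. In lsm8 mutants grin1b alone fell, to 226, 205 and 252 CPM against 261, 329 and 313 CPM in controls (-0.40, SE 0.12, limma adjusted p = 0.0480). Ratio scaling gave it -0.50 (adjusted p = 0.0156). The grin1b call was lost without any lsm8 mutant or the second or the third control library (0.0641 to 0.151) and with the single event of most reads. In tnpo3 mutants the AMPA receptor subunit gene gria3b fell to 119, 98.9 and 114 CPM against 157, 159 and 200 CPM in controls (-0.63, SE 0.13, adjusted p = 0.0344). It was lost without any tnpo3 mutant or the second or the third control library (0.0513 to 0.114) and with the single event of most reads.

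Of the inhibitory receptors, 3 of 16 genes fell in snapc3 mutants, against 4.68% of all genes. The GABA-A receptor subunit gene gabra6a, whose mammalian counterpart marks cerebellar granule cells, had 8.92, 9.97 and 9.08 CPM in snapc3 mutants against 13.3, 18.4 and 20.8 CPM in controls (-0.88, SE 0.20, limma adjusted p = 0.0331). The glycine receptor gene glra4b had 1.46, 1.69 and 1.27 CPM against 3.37, 3.36 and 4.57 CPM in controls (-1.33, SE 0.31, adjusted p = 0.0419). Both had all their snapc3 libraries below their controls, which a call with 3 libraries a group makes likely.

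The gabra6a call was lost without any snapc3 mutant or the second or the third control library (adjusted p = 0.0668 to 0.105). That of glra4b was lost without any 1 of the 6 libraries (0.0613 to 0.138) and under ratio scaling (0.0545). Its paralogue glra4a rose in lsm8 mutants, at 14.7, 10.9 and 11.0 CPM against 3.83, 6.70 and 6.88 CPM in controls (1.10, SE 0.25, adjusted p = 0.0185), and was lost without the first or the third lsm8 mutant library (0.0520 to 0.0783). Ratio scaling also called gabrb2 lower in lsm8 mutants (-0.56, adjusted p = 0.0240).

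Neurexin and neuroligin genes gave no call in any mutant, of 11, 11 and 10 tested, with medians of -0.24, 0.18 and 0.05. Of all genes 4.68%, 5.31% and 1.62% were called lower in snapc3, lsm8 and tnpo3 mutants, and 6.98% higher in lsm8 mutants. So few tested genes make the absence of a call say little. The most read, nlgn4a, had 91.4, 90.1 and 102 CPM in lsm8 mutants against 86.3, 95.8 and 117 CPM in controls (-0.07, limma adjusted p = 0.767), and overlapped the controls. That sum runs over 7 events and includes the reads of the 755 bp exon. The neuronal marker list had median log2 changes of -0.11, -0.18 and -0.01 in snapc3, lsm8 and tnpo3 mutants, against -0.11, 0.11 and 0.02 over all genes. Of its genes 1 of 11, 3 of 13 and 6 of 12 were above 0, beside 35.1%, 62.4% and 52.8% of all genes.

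**Figure D5:**
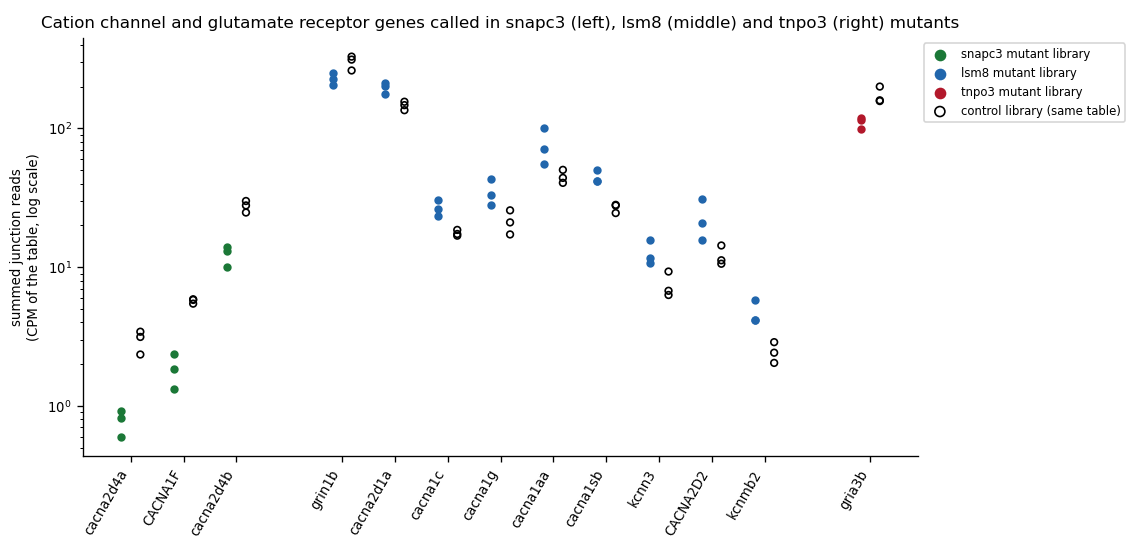
Summed junction reads (CPM of the table, log scale) in every library of the calcium channel, potassium channel and glutamate receptor genes called in snapc3, lsm8 and tnpo3 mutants, with mutant libraries as filled points left of the open points of the control libraries of the same table. For each of the 3, 9 and 1 such genes in snapc3, lsm8 and tnpo3 mutants, mutant and control libraries do not overlap. Choosing called genes makes this likely, so it is no further result.

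The authors' deposited expression tables list only genes past an adjusted p of 0.05 whose log2 fold change was 1 or more in size. They held 1 member among 851 genes for lsm8, 0 among 464 for snapc3 and 0 among 115 for tnpo3. The member was kcnj13, an inwardly rectifying potassium channel gene known in zebrafish for pigment stripes, with a higher level in lsm8 mutants by the authors' deposited table (log2 fold change 2.64, SE 0.43, adjusted p = 0.0291). Its average log2 expression of -3.33 in that table is low. This identifier, ENSDARG00000097715, had no event in the splicing tables, where kcnj13 stood under ENSDARG00000043443; its summed reads were not called in lsm8 or tnpo3 mutants and were too few to test in snapc3 mutants.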

How the data were processed

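RNA from whole embryos was measured in 12 libraries, 3 per group. Per the submitters' processing notes, TopHat2 2.0.13, Bowtie2 2.2.3, featureCounts 1.4.5-p1, limma 3.26.3 and build Zv9 were used; no source used here names the splicing tool. The deposited splicing tables hold whole-number junction read counts of both forms per library, form lengths and an FDR, a p-value of the authors. The deposited expression tables hold the authors' log2 fold changes, adjusted p-values and the moderated statistic (a score), from which SEs were derived.

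Members and lists were chosen with earlier results of these data known. Inclusion was computed from reads divided by form length. limma 3.58.1 (trend, robust; R 4.3.3) was fitted over each whole table on log2 ratios of the forms with 0.5 reads added, for events averaging 10 or more reads a library with at least 1 of each form. Calls needed a Benjamini-Hochberg adjusted p below 0.05 and, for exons, 10 percentage points. Gene sums were log2 CPM of table totals with 0.5 reads added and a mean of at least 10 reads. The steps were tested on simulated data. Tables were prepared with Python 3.11.15 and pandas 2.3.3.

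Named are all called exons and introns, the 6 most different exons per mutant with at least 20 reads, the 8 most read alternative exons, up to 8 called genes per mutant, members of the expression tables and the most read gene per role. Chosen after their values were seen were cacna1aa, CACNA2D2, scn4ab and gabrb2 in lsm8 mutants and the cacna2d4a exon. So were exons that differ between mutants alone and the KCNAB2, kcnc3a and kcnma1a exons. Some genes that the rule names are not reported here. Depth sets the precision: exons with few reads carry wide errors. Nothing says whether libraries came from separate clutches, so p-values measure the spread between these libraries alone. Libraries of a group stand in an order not matched to replicate numbers. Alternatives changed filters, pseudocounts, scaling, the FDR used and the libraries included.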

Additional observations from a re-analysis of the deposited data

Results flagged for a closer look

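Exons in which a limma test of the difference between 2 mutants passed, in the fit of all 12 libraries, were marked for a closer look. All values are differences of mean inclusion in percentage points, first mutant minus second, and no explanation was weighed. Libraries are given by their place in the tables.

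Among calcium channel exons CACNA1F differed by 60.4 between lsm8 (94.9%) and tnpo3 mutants (34.5%), and the 25 bp exon of cacnb2b by 28.9 between lsm8 (39.0%) and tnpo3 mutants (10%; adjusted p = 0.0225). The cacnb2b difference was lost without the second or the third lsm8 or the first or the third tnpo3 mutant library (0.0565 to 0.0803). The 20 bp exon of cacnb2a differed by -37.3 between lsm8 (21.4%) and tnpo3 mutants (58.7%; adjusted p = 0.0384) and was lost without the second or the third lsm8, any tnpo3 mutant or the second control library (0.0504 to 0.124). The 120 bp exon of cacna1ab (Zv9 chromosome 11, 31883300 to 31883419), which shares its skipping reads with the 36 bp exon of that gene, differed by -25.4. It read 13.3%, 3.85% and 12.9% in lsm8 and 41.9%, 41.7% and 22.7% in tnpo3 mutants (adjusted p = 0.0428), and was lost without any lsm8 mutant, the first or the second tnpo3 mutant or any control library (0.0537 to 0.145).

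The 39 bp exon of kcnh8 (chromosome 19, 21101222 to 21101260), of the EAG-like potassium channels, differed by 14.2 between lsm8 (100%) and tnpo3 mutants (85.8%; adjusted p = 0.0313). It differed by -18.1 between snapc3 (81.9%) and lsm8 mutants (100%; adjusted p = 0.0476). The first difference was lost without the first or the third lsm8 or any tnpo3 mutant library (0.0650 to 0.0932). The snapc3 and lsm8 difference was lost without the second or the third snapc3, any lsm8 or tnpo3 mutant or the second control library (0.0581 to 0.155), and both were lost with 2 reads added. The kcnn3 exon differed by 26.1 between snapc3 and lsm8 and by 44.0 between snapc3 and tnpo3 mutants.

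The 68 bp exon of gabrr2a (chromosome 17, 15717344 to 15717411), a rho subunit of GABA-A receptors, differed by 10.2 between snapc3 (100%) and lsm8 mutants (89.8%; adjusted p = 0.0450). It was lost without any snapc3 mutant, the first or the second lsm8 mutant or any control library (0.0537 to 0.146).

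Among neuroligins, the 54 bp exon of nlgn2a (chromosome 7, 23256691 to 23256744) differed by -20.2, at 67.5%, 78.0% and 71.1% in lsm8 and 95.5%, 95% and 86.6% in tnpo3 mutants (adjusted p = 0.0384). It was lost without any lsm8 mutant or the first or the second tnpo3 mutant library (0.0719 to 0.119). The nlgn3a exon at 18217981 differed by 46.2 between lsm8 and tnpo3 mutants (adjusted p = 0.0438) and by 50.7 between snapc3 and tnpo3 mutants. The 46.2 was lost without the first or the second lsm8, any tnpo3 mutant or the first control library (0.0568 to 0.142). The nlgn3a exon at 18267339 differed the other way, by -22.1 between lsm8 (16.4%) and tnpo3 mutants (38.5%; adjusted p = 0.0438), and was lost without the first snapc3, any lsm8 or tnpo3 mutant or the second control library (0.0530 to 0.138). The nlgn4a exon differed by 13.8 between snapc3 and lsm8 mutants.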

How the results depend on the processing

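Counts of called member exons moved with the threshold and the fit. In lsm8 mutants 5 became 21 with no minimum difference, 2 with a minimum of 20 points, 3 with lower-case symbols alone and 2 in the fit of all 4 groups. Over all genes 915 lower and 53 higher of 22499 exons passed with no minimum difference, beside these 21 of 388 member exons. In tnpo3 mutants 8 became 5 with no read minimum, 18 with no minimum difference, 14 by the deposited FDR (12 lower, 2 higher) and 1 in the fit of all 4 groups. With no minimum difference 1639 lower and 54 higher of 27050 exons over all genes passed there, beside the 18 of 378 member exons. Shares over all exons under the other settings are not reported here. In snapc3 mutants 0 became 1 by the deposited FDR. Called genes became 1 of 10 in lsm8 mutants when log2 fold changes of 1 or more in size were required, and 0 of 1 in tnpo3 mutants there and with the single event of most reads. Calls between snapc3 and tnpo3 mutants became 7 in place of 2 with 2 reads added. Leaving out each library gave 0 to 1 called exons in snapc3, 4 to 8 in lsm8 and 5 to 11 in tnpo3 mutants, and 2 to 7, 1 to 13 and 0 to 1 called genes. It gave 0 called introns throughout, 1 to 10 exons between lsm8 and tnpo3, 0 to 3 between snapc3 and lsm8 and 1 to 4 between snapc3 and tnpo3 mutants. The causes were not tested.

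Of 386 values of named exons under an alternative, 340 kept their direction and side of the threshold, 38 fell short of it and 8 newly passed. Of 202 values of named genes 115 kept theirs and 87 fell short, and of 210 between mutants 131 kept theirs and 79 fell short. In these, 0 changed direction. Dropping the division by form length, the variance trend over reads and leave-one-out between mutants were chosen after seeing the data. No paired analysis was possible because the labels give no pairs: the 3 libraries of a mutant share 1 background, and controls have 1 library of each. The tables' library order is also not matched to the replicate numbers. Low read counts limit the exons with under 20 reads most.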
